A study of Mus musculus with 6 samples.

Results

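The genes described here encode the machinery of mitosis: the cyclins and kinases that start it, the kinetochore and spindle that move the chromosomes, the checkpoint that times their separation, and the ring and midzone proteins that divide the cell. A list of 59 such genes was drawn up by function, and 57 of them were measured by a probe set with a single gene symbol, out of 22180 genes in all. The remaining members, Ccnb1 and Ncapg, were not analysed here. Where a gene had several probe sets the brightest over the 6 arrays was to stand for it, but 0 of the 57 members had more than 1, so that step of the rule chose nothing. The list was drawn up when it was already known that transcripts of cell division were lower with Epas1 in these data, so the counts below describe the members and are not independent evidence of a direction.

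Expression was measured in fibroblast-like synoviocytes, the stromal cells that line joints, which came from the knees of C57BL6 mice and were between passages 4 and 8. In the Ad-Epas1 group (3 arrays) the cells had received an adenovirus carrying Epas1, which encodes an oxygen-regulated transcription factor of the HIF family, and in the Mock group (3 arrays) an adenovirus without insert. Both groups were infected at a multiplicity of 800 for 2 h and cultured for 24 h, so every sample was a virus-exposed culture, and the animals' ages and the promoter of the transgene are not given in the sources used here. Values are RMA log2 levels, and the replicates are labelled biological with no animal named for each, so the p-values reflect only how far these samples vary, which may be technical.

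Transcripts of mitotic genes are made in a wave that peaks late in the cell cycle, and cells outside the cycle hold little of them. Many of their promoters carry a cell cycle genes homology region (CHR), an element bound by the MuvB core complex, which acts as the repressing DREAM complex in resting cells and, with B-MYB and FOXM1, as an activator in dividing ones. A CCAAT box, bound by the factor NF-Y, often lies upstream of it. In the joint lining, Ki-67, the product of a member gene, is a common stain for dividing cells.

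The promoters are shown first because the members share these elements although the rule for the list used no sequence. RefSeq windows of 300 bases (250 before and 50 after the gene start, GRCm38.p6) were matched by symbol for 47 of the 57 members, 1 window a gene. A CHR, searched as TTTGAA or TTCGAA on both strands, was in 36 of the 47 (76.6%), against 19.4% of 27025 promoters in the table. Within the last 100 bases of the window, around the gene start, 68.1% of the member promoters held one, against 5.29% of all promoters. CCAAT on either strand was in 34 of 47 (72.3%), against 37.9% of all promoters. Both elements together were in 29 of 47 (61.7%), against 7.70%. An E2F site (TTCCCGC or TTGGCGC) was in 10 of 47 (21.3%), against 6.93%. The core of a hypoxia response element (ACGTG or GCGTG), the letters that HIF dimers bind, was in 31 of 47 (66.0%), against 43.8%. These shares are descriptions, and a match is not a bound site.

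The windows of the 5 members with the largest falls among those with both elements and a window show the arrangement, with CHR and CCAAT matches of either strand in capitals. In Ccnb2, Ect2, Bub1 and Plk1, CCAAT boxes precede a CHR that lies at or after the gene start, and in Kif11 both are on the other strand.
Kif11 (chr19:37376132-37376431, plus strand): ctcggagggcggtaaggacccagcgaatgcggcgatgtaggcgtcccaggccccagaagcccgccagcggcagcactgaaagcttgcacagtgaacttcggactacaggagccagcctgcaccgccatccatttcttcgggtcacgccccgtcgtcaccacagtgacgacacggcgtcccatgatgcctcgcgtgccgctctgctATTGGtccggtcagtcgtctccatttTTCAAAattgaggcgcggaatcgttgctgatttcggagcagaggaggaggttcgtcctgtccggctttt
Ccnb2 (chr9:70421505-70421804, minus strand): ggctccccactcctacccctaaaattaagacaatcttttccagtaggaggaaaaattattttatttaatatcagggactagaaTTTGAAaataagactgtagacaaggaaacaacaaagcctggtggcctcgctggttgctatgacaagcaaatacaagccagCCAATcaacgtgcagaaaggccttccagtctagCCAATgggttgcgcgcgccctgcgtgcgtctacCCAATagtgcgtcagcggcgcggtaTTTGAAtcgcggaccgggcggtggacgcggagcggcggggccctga
Ect2 (chr3:27153829-27154128, minus strand): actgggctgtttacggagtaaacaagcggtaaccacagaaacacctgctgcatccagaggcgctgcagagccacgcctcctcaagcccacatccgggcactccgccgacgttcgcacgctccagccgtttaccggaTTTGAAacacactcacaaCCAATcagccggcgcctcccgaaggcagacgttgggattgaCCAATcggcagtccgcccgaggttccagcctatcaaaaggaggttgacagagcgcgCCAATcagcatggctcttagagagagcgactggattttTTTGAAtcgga
Bub1 (chr2:127831810-127832109, minus strand): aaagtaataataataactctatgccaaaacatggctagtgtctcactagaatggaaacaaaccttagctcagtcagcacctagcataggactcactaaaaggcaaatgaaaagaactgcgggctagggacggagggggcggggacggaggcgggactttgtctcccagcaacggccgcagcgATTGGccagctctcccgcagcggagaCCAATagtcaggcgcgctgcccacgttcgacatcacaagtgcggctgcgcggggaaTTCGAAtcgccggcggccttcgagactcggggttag
Plk1 (chr7:122159185-122159484, plus strand): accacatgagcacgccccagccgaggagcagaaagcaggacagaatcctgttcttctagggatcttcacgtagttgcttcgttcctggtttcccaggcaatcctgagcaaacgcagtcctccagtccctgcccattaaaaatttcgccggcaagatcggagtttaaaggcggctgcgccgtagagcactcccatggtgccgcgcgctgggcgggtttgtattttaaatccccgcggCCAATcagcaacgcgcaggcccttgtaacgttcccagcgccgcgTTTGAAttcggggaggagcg

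Matches to the CHR clustered at the gene start, with a median first base at -9 and 35 of 50 in the last 100 bases, whereas the 68 CCAAT matches had their median at -55. Of the 22 members that the naming rule picks for array values, 16 had a window and 12 held a CHR in its last 100 bases. The CHR of Bub1b, at 41, lies too near the window's end for 10 bases on each side. The other 11 are aligned here on the element (capitals, read on the strand of the motif), and 10 have TTTGAA and 1 has TTCGAA.
Cdk1 (chr10:69352912-69352937, minus strand): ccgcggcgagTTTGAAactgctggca
Cdca3 (chr6:124830196-124830221, plus strand): tggagggaagTTTGAAactccgggct
Plk1 (chr7:122159455-122159480, plus strand): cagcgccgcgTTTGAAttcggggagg
Bub1 (chr2:127831830-127831855, minus strand): gcgcggggaaTTCGAAtcgccggcgg
Ndc80 (chr17:71526813-71526838, plus strand): cccaaggcggTTTGAAttttaaagtt
Kif11 (chr19:37376353-37376378, minus strand): gcgcctcaatTTTGAAaaatggagac
Kif22 (chr7:127042422-127042447, plus strand): gcttctctctTTTGAAttaccggggc
Prc1 (chr7:80294436-80294461, plus strand): tctggctcggTTTGAAttccgcgggg
Anln (chr9:22389170-22389195, plus strand): ccgttcaaaaTTTGAAtttcagcgcc
Top2a (chr11:99024197-99024222, plus strand): cctagtttcaTTTGAAcctttatcta
Espl1 (chr15:102296256-102296281, plus strand): actagggataTTTGAAaggaggtgct

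**Figure D1:**
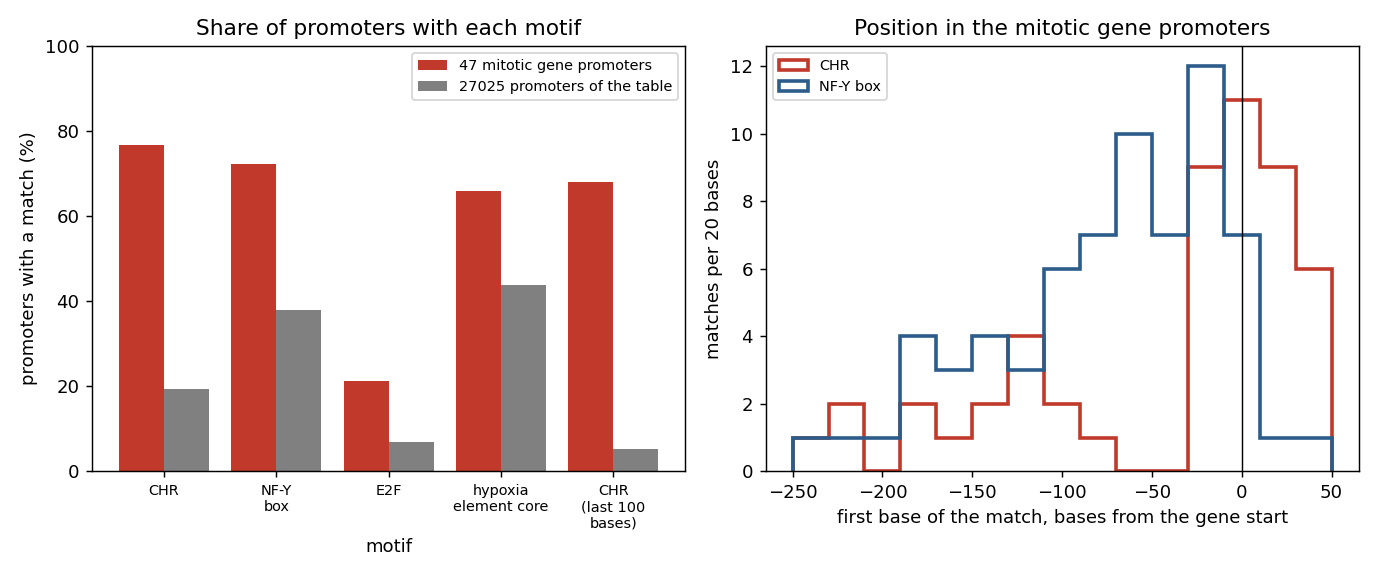
Left, the percent of 47 mitotic gene promoters (red) and of 27025 promoters (grey) with a match to each element in 300 bases, where the NF-Y box is the CCAAT motif. Right, the position of each CHR and NF-Y box match in the mitotic promoters, in bases from the gene start. CHR matches are in 76.6% of the mitotic promoters against 19.4% of all, with most of them at the start.

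The change was also set beside the elements. Members with a CHR had a median log2 fold change of -1.79 and those without one -1.78, and with and without CCAAT both medians were -1.78. With a hypoxia element core the median was -1.78, and without it -1.93. These differences were not tested.

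Epas1 stood at 13.14, 13.15 and 13.11 on Ad-Epas1 replicates 1, 2 and 3, against 8.67, 8.71 and 8.51 on Mock replicates 1, 2 and 3, as labelled. All values per array below are log2 levels in this order of replicates, and a single signed value beside a gene is its log2 fold change, Ad-Epas1 over Mock. The array medians lay between 6.77 and 6.84. All 10 fibroblast markers were above the 95th percentile of 1394 olfactory and vomeronasal receptor genes (6.62, with a median of 4.34), which served as background. The labels give the cells as over 90% CD90-positive and under 1% CD14-positive, whereas all 12 macrophage markers were also above that background on 5 arrays, with a summed level of 14.6 to 15.0 (log2). On Ad-Epas1 replicate 3 that sum was 11.6 and 4 of the 12 markers lay below 6.62, none being at 0. The summed level of the 10 fibroblast markers was 15.3 to 15.6 (log2) over the 6 arrays. On no array were more than 3 of 5 endothelial markers or 1 of 3 T and B cell markers above 6.62.

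All 57 measured members fell in Ad-Epas1 cells (limma, adjusted p between 3.1e-04 and 0.022), 55 of them by at least 1.5-fold. Among all 22180 genes, 9.75% were lower at this threshold (adjusted p under 0.05) and 5.19% lower by at least 1.5-fold. The median log2 fold change of the members was -1.77, a level 3.40-fold lower, against 0.05 over all genes. The changes ran from 1.36-fold for Espl1 to 10.9-fold for Ccna2. All 3 Ad-Epas1 arrays lay below all 3 Mock arrays for 57 of 57 members, against 18.4% of all genes. Some cell type markers also differed between the groups. Of 12 macrophage markers 3 fell, Mrc1 (-2.84, adjusted p = 0.0094), Cx3cr1 (-1.08, adjusted p = 0.0022) and Aif1 (-0.60, adjusted p = 0.010). The other 9 did not pass, and all 9 were lowest on Ad-Epas1 replicate 3. Of these 9, Lyz2 (-1.91), Adgre1 (-1.60), Itgam (-1.39), Ptprc (-1.37), Csf1r (-1.29), Fcgr1 (-0.79) and Cd68 (-0.71) had negative changes. Cd14 (0.46, adjusted p = 0.72) and Mertk (0.47, adjusted p = 0.48) had positive changes. The median of the 12 macrophage markers was -1.18. Cd14 stood at 11.92, 11.40 and 8.62 in Ad-Epas1 cells, against 10.42, 9.99 and 10.14 in Mock cells. Cx3cr1 was not lowest on Ad-Epas1 replicate 3 (8.03, 8.12 and 8.19 on the Ad-Epas1 arrays). Of 10 fibroblast markers 2 fell, Pdgfrb (-1.20, adjusted p = 0.0044) and Col3a1 (-0.89, adjusted p = 0.029), and Pdpn rose (0.73, adjusted p = 0.0041). None of the 5 endothelial or 3 T and B cell markers passed, and the part of these markers in the members' change was not tested. In bulk RNA, fewer cells in mitosis and less RNA per cell cannot be told apart, and exact permutation of 3 against 3 arrays could not go below p = 0.1.

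**Figure D2:**
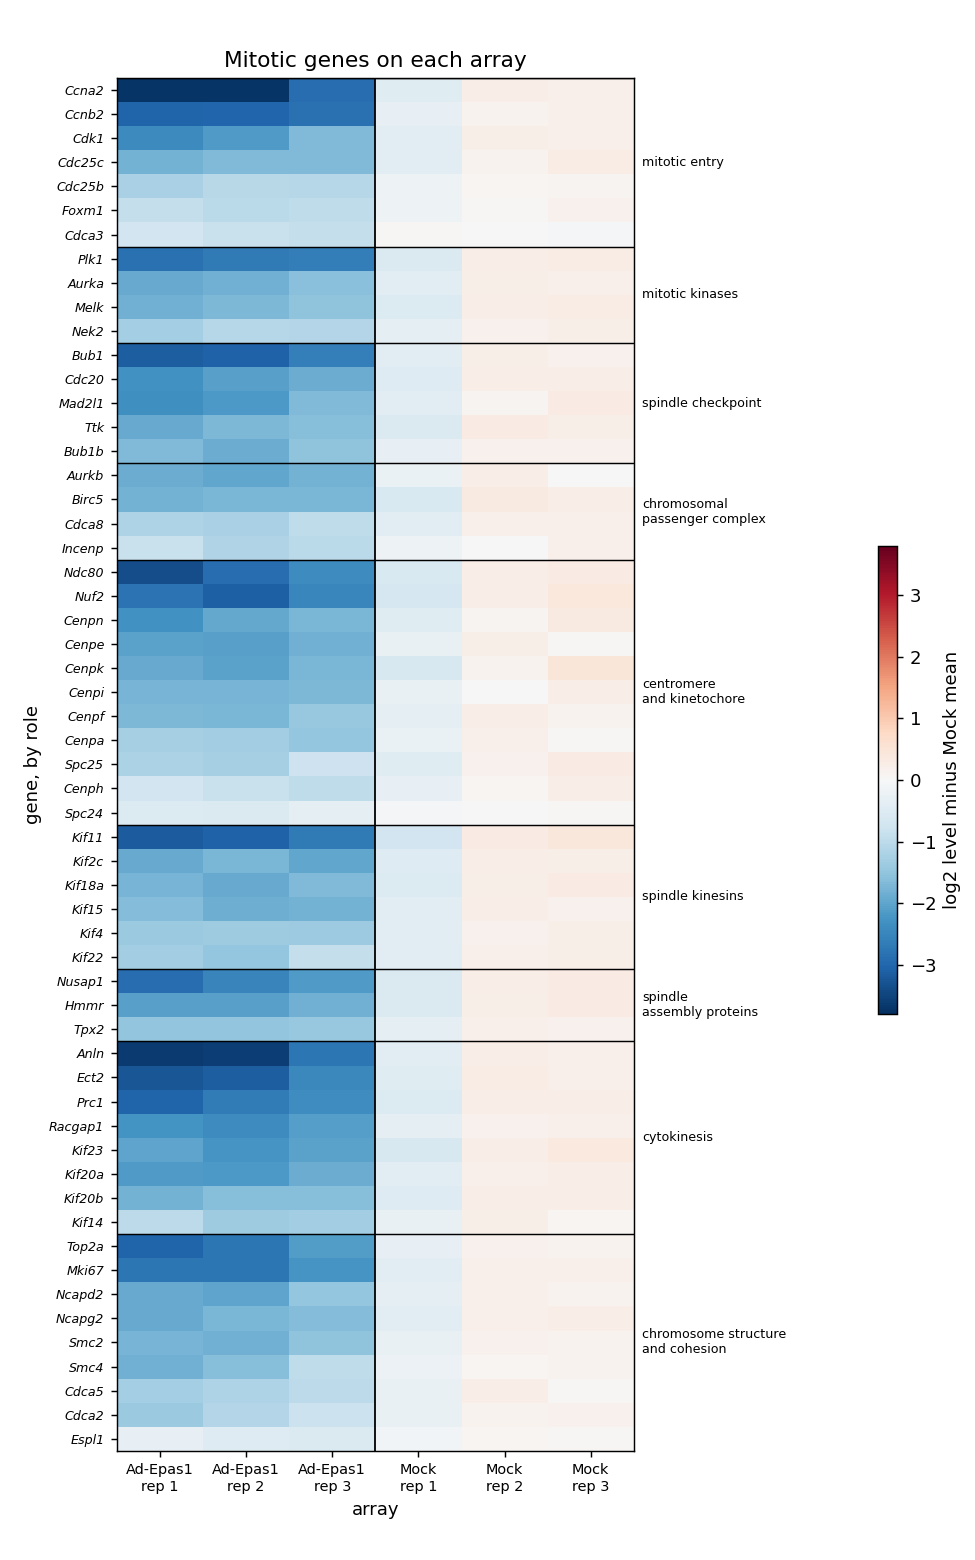
Log2 level of each of the 57 genes on each array minus the gene's Mock mean, with genes grouped by role and ordered by their change. Ad-Epas1 arrays are on the left and blue throughout, and among the Mock arrays replicate 1 is pale blue, the lowest of the 3 for 56 of 57 genes.

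The transcription factor and the cyclin-dependent kinase system that start mitosis fell as a group (7 of 7 measured, median -1.71). Ccna2 encodes cyclin A, which acts in S phase and at mitotic entry, and stood at 6.54, 6.54 and 7.37 in Ad-Epas1 cells, against 9.81, 10.52 and 10.45 in Mock cells. It fell by 3.44 (SE 0.28, adjusted p = 0.0014) on the log2 scale, the third lowest log2 fold change of all genes. Ad-Epas1 replicates 1 and 2 were alike and below the background level of 6.62, and replicate 3 lay above it but far below every Mock array. Cdk1, the kinase that the mitotic cyclins activate, stood at 8.11, 8.38 and 8.83 in Ad-Epas1 cells, against 10.08, 10.75 and 10.73 in Mock cells, and fell by 2.08 (SE 0.24, adjusted p = 0.0037). Foxm1, which encodes the activator that joins MuvB at mitotic promoters, stood at 7.51, 7.40 and 7.46 in Ad-Epas1 cells, against 8.21, 8.46 and 8.59 in Mock cells, and fell by 0.96 (SE 0.11, adjusted p = 0.0032). The groups were apart for both genes, and Foxm1 varied little among the Ad-Epas1 arrays. Cdca3, needed for the breakdown of a mitosis inhibitor, had the smallest change of the group, with 6.90, 6.79 and 6.73 in Ad-Epas1 cells, against 7.68, 7.63 and 7.60 in Mock cells (-0.83, adjusted p = 0.0017). The B-type cyclin gene Ccnb2 (-2.96, adjusted p = 3.1e-04) had the smallest p of all members, and Cdc25b (-1.13) and Cdc25c (-1.71), phosphatases that activate Cdk1, fell too.

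All 4 mitotic kinases outside that system fell (median -1.73). Plk1, polo-like kinase, acts from centrosome maturation to cytokinesis and stood at 7.15, 7.31 and 7.36 in Ad-Epas1 cells, against 9.44, 10.25 and 10.28 in Mock cells, a change of -2.72 (adjusted p = 0.0014). The 3 Ad-Epas1 values lay close together, while Mock replicate 1 was well below the other Mock arrays. Nek2, which separates the centrosomes, changed least, with 6.18, 6.38 and 6.34 in Ad-Epas1 cells, against 7.10, 7.62 and 7.68 in Mock cells (-1.16, adjusted p = 0.0061). Aurka, a centrosome and spindle kinase, fell by 1.77, and Melk, a kinase of dividing cells, fell by 1.69.

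The spindle checkpoint holds the cell before anaphase until every kinetochore is attached, and its 5 members fell with a median of -2.07. Bub1, a kinase that builds the checkpoint at kinetochores, stood at 6.19, 6.25 and 6.72 in Ad-Epas1 cells, against 8.91, 9.54 and 9.48 in Mock cells and fell by 2.92 (SE 0.21, adjusted p = 9.3e-04). Bub1b encodes a part of the inhibitor of the anaphase-promoting complex and stood at 6.76, 6.55 and 6.90 in Ad-Epas1 cells, against 8.11, 8.60 and 8.58 in Mock cells (-1.69, adjusted p = 0.0021). Thus the largest and the smallest change of this group differed by more than 1 log2 unit, and neither gene's groups overlapped. Mad2l1, another part of the inhibitor, was at -2.07, Cdc20, the activator that it holds, at -2.08, and the kinase gene Ttk at -1.74.

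The chromosomal passenger complex corrects faulty attachments and then moves to the midzone, and its 4 members fell with a median of -1.44. Aurkb, its kinase, stood at 7.88, 7.79 and 7.98 in Ad-Epas1 cells, against 9.51, 10.01 and 9.77 in Mock cells and fell by 1.88 (SE 0.13, adjusted p = 9.3e-04). Incenp, the scaffold, stood at 7.62, 7.31 and 7.45 in Ad-Epas1 cells, against 8.27, 8.46 and 8.64 in Mock cells and fell by 1.00 (SE 0.12, adjusted p = 0.0042). Both were separated from Mock on every array, Aurkb by a wider margin. The targeting subunits Birc5 (survivin) and Cdca8 (borealin) were at -1.76 and -1.13.

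Centromere and kinetochore genes fell in 11 of 11 cases (median -1.74). The Ndc80 complex couples kinetochores to microtubules and has 4 subunits. Ndc80 stood at 5.94, 6.42 and 6.90 in Ad-Epas1 cells, against 8.73, 9.54 and 9.62 in Mock cells (-2.88, adjusted p = 0.0030). Spc24 stood at 7.19, 7.15 and 7.34 in Ad-Epas1 cells, against 7.65, 7.69 and 7.74 in Mock cells (-0.46, adjusted p = 0.011). The Spc24 arrays were close together within each group, and the gap between the groups was narrow. The other 2 subunits, Nuf2 and Spc25, were at -2.79 and -1.09, so the 4 subunits fell by unlike amounts, Spc24 least and Ndc80 most. Their Mock means stood in the same order, at 9.30 for Ndc80, 9.17 for Nuf2, 8.16 for Spc25 and 7.69 for Spc24. The values per array of Spc25 were 6.95, 6.89 and 7.37 in Ad-Epas1 cells, against 7.69, 8.32 and 8.47 in Mock cells (adjusted p = 0.022, the highest among the members, for which it is shown). Cenpa, the histone variant of centromeres, fell by 1.35. Its constitutive partners Cenph, Cenpi, Cenpk and Cenpn were at -0.85, -1.74, -1.90 and -1.99. Cenpe, a kinetochore motor, was at -1.98, and Cenpf, a large outer kinetochore protein, at -1.63.

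The 6 spindle kinesins fell (median -1.77). Kif11, the motor that pushes the spindle poles apart, stood at 6.04, 6.11 and 6.52 in Ad-Epas1 cells, against 8.47, 9.49 and 9.61 in Mock cells, and fell by 2.97 (SE 0.31, adjusted p = 0.0027). Kif22, a chromosome-arm motor, stood at 6.79, 6.67 and 7.21 in Ad-Epas1 cells, against 7.71, 8.32 and 8.35 in Mock cells and changed least (-1.23, adjusted p = 0.012). Ad-Epas1 replicate 3 was the highest of its group for both, and Mock replicate 1 the lowest of its group. Kif15, which backs up Kif11, was at -1.76, the microtubule-shortening motors Kif18a and Kif2c at -1.78 and -1.87, and the chromosome-bound motor Kif4 at -1.39. Of the proteins that assemble the spindle, Nusap1, a microtubule bundler, stood at 6.42, 6.79 and 7.14 in Ad-Epas1 cells, against 8.75, 9.55 and 9.62 in Mock cells (-2.52, adjusted p = 0.0030). Tpx2, the activator of Aurka on the spindle, stood at 7.87, 7.89 and 7.96 in Ad-Epas1 cells, against 9.04, 9.58 and 9.54 in Mock cells (-1.48, adjusted p = 0.0024). Hmmr, a microtubule-binding protein of the spindle poles, was at -1.98, so all 3 fell.

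Cytokinesis genes had the lowest median of the role groups (-2.17, 8 of 8 fell). They also had the highest median Mock level of these groups (9.62). Over all 57 members a higher Mock mean went with a lower log2 fold change (Pearson correlation -0.69, Spearman -0.67). The part of the starting level in the order of groups and genes was not tested. Anln, the anillin scaffold of the contractile ring, stood at 6.73, 6.80 and 7.63 in Ad-Epas1 cells, against 9.93, 10.62 and 10.57 in Mock cells, and fell by 3.32 (SE 0.29, adjusted p = 0.0016). Prc1, which bundles midzone microtubules, stood at 6.97, 7.34 and 7.66 in Ad-Epas1 cells, against 9.50, 10.26 and 10.27 in Mock cells, and fell by 2.69 (SE 0.26, adjusted p = 0.0022). Kif14, a midbody motor, stood at 6.38, 6.04 and 6.07 in Ad-Epas1 cells, against 7.08, 7.59 and 7.47 in Mock cells (-1.22, adjusted p = 0.0050). The first 2 were highest on replicate 3 of the Ad-Epas1 arrays and Kif14 on replicate 1. Ect2, the activator of RhoA at the division plane, was at -2.95, and Racgap1 and Kif23, which form the centralspindlin complex that recruits it, were at -2.25 and -2.08. The midzone motors Kif20a and Kif20b were at -2.07 and -1.67.

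Genes of chromosome structure and cohesion fell in 9 of 9 cases (median -1.70). Mki67, the proliferation marker Ki-67 that coats mitotic chromosomes, stood at 7.68, 7.68 and 8.17 in Ad-Epas1 cells, against 10.04, 10.61 and 10.62 in Mock cells and fell by 2.58 (SE 0.20, adjusted p = 0.0012). Top2a, the topoisomerase that untangles sister DNA, stood at 6.50, 6.79 and 7.42 in Ad-Epas1 cells, against 9.22, 9.70 and 9.68 in Mock cells and fell by 2.63 (SE 0.25, adjusted p = 0.0021). Espl1, the separase that cuts cohesin, had the smallest change of all members, with 7.46, 7.30 and 7.23 in Ad-Epas1 cells, against 7.67, 7.85 and 7.81 in Mock cells (-0.45, adjusted p = 0.020). The gap between the closest arrays of the groups was 1.87 for Mki67 and 1.80 for Top2a, but 0.20 for Espl1. The condensin core genes Smc2 and Smc4 were at -1.70 and -1.47, and the regulatory subunits Ncapd2 and Ncapg2 at -1.80 and -1.78. Cdca5 (sororin), which protects cohesin, and Cdca2, a phosphatase adaptor of anaphase chromosomes, were at -1.14 and -1.12.

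**Figure D3:**
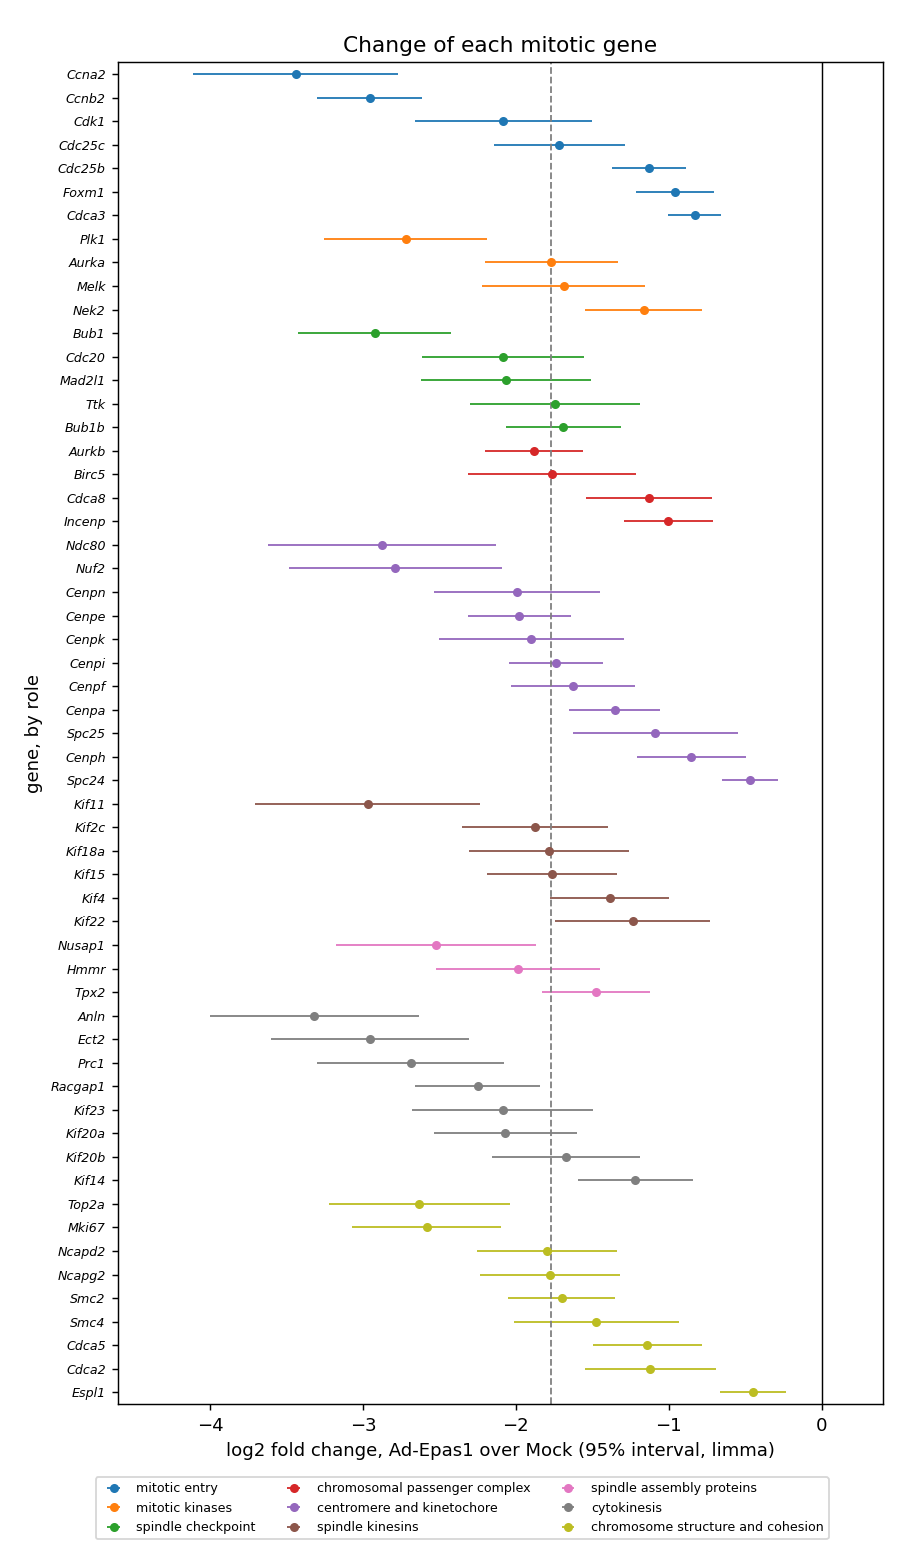
Log2 fold change of each gene, Ad-Epas1 over Mock, with its 95% interval from limma, coloured by role, and the median of all 57 (-1.77) as a dashed line. Every interval lies below 0, and the intervals of Spc24 and Espl1 lie nearest to it.

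On the scale of all genes, the members held 8 of the 20 lowest log2 fold changes, 13 of the lowest 50 and 22 of the lowest 100. Of the 57, 52 had a log2 fold change of -1 or lower, 19 of -2 or lower, and 2, Ccna2 and Anln, of -3 or lower. In Ad-Epas1 cells the means lay between 5.56 and 8.88, and 18 members were below 6.62, so their fold changes are not exact. In Mock cells all 57 means (7.12 to 10.5) lay above 6.62, Cenph having the lowest. The 18 members were Birc5, Bub1, Cdc25c, Cenph, Cenpi, Cenpk, Hmmr, Kif11, Kif14, Kif15, Kif18a, Kif20b, Kif2c, Kif4, Ndc80, Nek2, Nuf2 and Ttk. The other 39 had Ad-Epas1 means above that level, but not all were above it on every array. Counted by array, 22, 20 and 15 members were below it on Ad-Epas1 replicates 1, 2 and 3. Ccna2 was below it on replicates 1 and 2 (6.54 on each), so its fold change is not exact either.

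**Figure D4:**
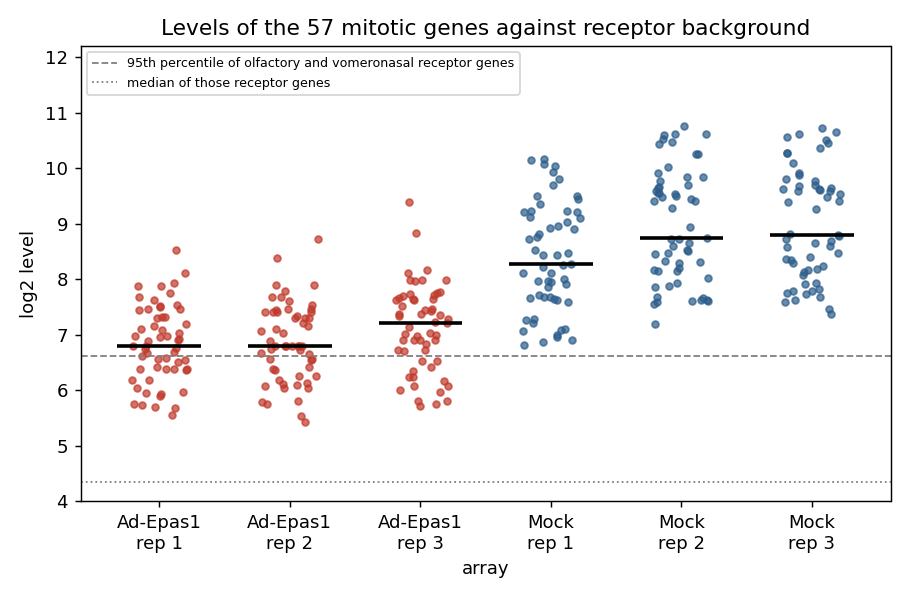
Log2 levels of the 57 genes on each array (points, with the median as a bar) against the median (4.34, dotted) and the 95th percentile (6.62, dashed) of 1394 receptor genes. The medians are 6.79, 6.79 and 7.21 on the Ad-Epas1 arrays and 8.27, 8.75 and 8.79 on the Mock arrays.

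The members also varied together between replicates. Relative to the Mock mean, their median lay at -1.88, -1.82 and -1.68 on Ad-Epas1 replicates 1, 2 and 3, and at -0.41, 0.19 and 0.21 on Mock replicates 1, 2 and 3. Ad-Epas1 replicate 3 was the highest of its group for 42 of 57, with a median gap of 0.24 to the mean of the other Ad-Epas1 arrays, against 0.04 over all genes. Mock replicate 1 was the lowest Mock array for 56 of 57 members, the exception being Cdca3, with a median gap of -0.61, against 0.02 over all genes. The median SD of a member was 0.15 over the Ad-Epas1 arrays and 0.35 over the Mock arrays, against 0.12 and 0.09 over all genes. Ad-Epas1 replicate 3 is also the array with the low macrophage transcripts. Without it 57 of 57 members fell, with a median of -1.83. Without Mock replicate 1 the count was 57 and the median -2.0, and without both arrays, a setting added after the data were seen, 57 and -2.06.

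Of the 57 calls, Spc25, Espl1, Kif22, Cdca2, Cenph and Spc24 depended on single arrays. Without Ad-Epas1 replicate 1, Spc25 lost its call (adjusted p = 0.069), and without Ad-Epas1 replicate 2, Cenph, Espl1, Kif22 and Spc25 did (up to 0.084). Without Mock replicate 2 all 6 did (up to 0.092), and without Mock replicate 3 all but Cenph (up to 0.089). All 57 stayed below 0 in every setting that tested them.

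Genes outside the list were read from the same fit. Of 151 measured genes on 7 other lists of mitosis, its control and DNA replication, 88 fell, none rose and 63 did not pass, with a median of -0.58. Among all genes 9.75% fell and 6.57% rose at this threshold. By other settings the count was 52 without Mock replicate 2, 56 without Mock replicate 3 and 40 with no variance shared between genes. Sgo1 is on both the kinetochore and the cohesin list.

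Among other kinetochore and centromere genes 17 of 25 fell (median -0.83). The genes with the smallest p were the kinetochore subunits Cenpp (adjusted p = 0.0010), Nsl1 (-1.38, adjusted p = 0.0027) and Knl1 (-2.37, adjusted p = 0.0029). Cenpp averaged 5.66 ± 0.03 in Ad-Epas1 cells and 6.50 ± 0.04 in Mock cells (SD, n = 3 each), both below 6.62, so no fold is given for it. Nsl1 and Knl1, and Mastl, Esco2, Sgo1 and Pole named below, had Ad-Epas1 means under 6.62, so their fold changes are not exact. Of other spindle and centrosome genes 16 of 22 fell (median -0.80). Those with the smallest p, though not the largest falls, were the spindle protein Tacc3 (-1.17, adjusted p = 0.0021), the tubulin gene Tubb5 (-0.79, adjusted p = 0.0030) and the microtubule destabiliser Stmn1 (-1.64, adjusted p = 0.0037). Other genes of mitotic entry and cytokinesis fell in 11 of 18 cases (median -0.85). The smallest p values were those of the RhoA regulator Arhgap11a (-1.17, adjusted p = 0.0012), the Cdk1 subunit Cks1b (-1.14, adjusted p = 0.0016) and Mastl (-2.17, adjusted p = 0.0021), the kinase that restrains the phosphatase opposing Cdk1.

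The anaphase-promoting complex marks cyclins and securin for destruction, and 4 of its 18 measured genes passed (median -0.13). These were Ube2c, its ubiquitin-conjugating enzyme (-2.37, adjusted p = 0.0067), the inhibitor Fbxo5 (-1.30, adjusted p = 0.0061), and the core subunits Anapc5 (-0.47, adjusted p = 0.024) and Anapc13 (-0.33, adjusted p = 0.042). Of other condensin and cohesin genes 6 of 14 fell (median -0.31). Esco2, which acetylates cohesin in S phase, was at -2.56 (adjusted p = 0.0042), the cohesin protector Sgo1 at -1.55 (adjusted p = 0.0032) and the condensin subunit Ncapd3 at -0.71 (adjusted p = 0.0029). Of the cohesin ring genes, Smc1a fell (-0.60, adjusted p = 0.0045). Smc3 (-0.44, adjusted p = 0.051) and Rad21 (-0.18, adjusted p = 0.16) did not pass. These ring genes and Anapc13 are named after their values were seen.

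Of the DREAM, MuvB and E2F genes, which regulate these promoters, 10 of 21 fell (median -0.34). The repressor E2f8 was at -1.60 (adjusted p = 5.6e-04), the activator E2f2 at -0.60 (adjusted p = 0.0075) and Mybl2, which encodes B-MYB, at -0.62 (adjusted p = 0.011). DNA replication genes fell in 25 of 34 cases (median -0.69), with Mcm5 at -1.58 (adjusted p = 4.0e-04), Tk1 at -1.29 (adjusted p = 5.3e-04) and the polymerase gene Pole at -2.24 (adjusted p = 9.3e-04). The median of the mitotic members was lower than those of these lists, a difference that was not tested.

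Several genes with mitotic roles did not move with the members, and they are named after their values were seen. Cks2, the paralogue of Cks1b, stood at 11.08, 10.91 and 10.57 in Ad-Epas1 cells, against 10.37, 11.00 and 10.99 in Mock cells (adjusted p = 0.86). Gtse1, a microtubule-binding protein of the spindle, stood at 9.01, 9.47 and 9.78 in Ad-Epas1 cells, against 9.12, 9.53 and 9.51 in Mock cells (adjusted p = 0.93). Pttg1, which encodes securin, stood at 8.08, 8.07 and 8.23 in Ad-Epas1 cells, against 7.99, 8.03 and 7.89 in Mock cells (adjusted p = 0.21). The Cks2 and Gtse1 groups overlapped, and the Pttg1 arrays of Ad-Epas1 lay just above those of Mock. Cdc25a, the third Cdc25 phosphatase gene, was at -0.05 (adjusted p = 0.69), Ube2s at -0.06 (adjusted p = 0.70) and the kinetochore gene Zwint at 0.19 (adjusted p = 0.14).

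**Figure D5:**
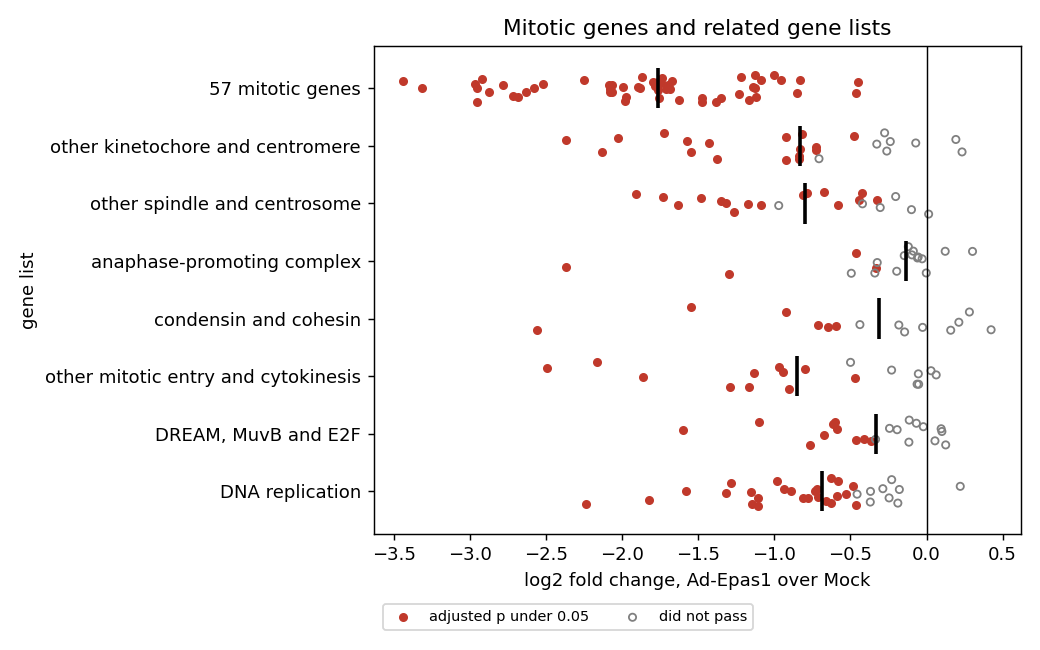
Log2 fold change, Ad-Epas1 over Mock, of each of the 57 mitotic genes and of each gene on 7 related lists (points, filled where the adjusted p was under 0.05, with the list median as a bar). All 57 mitotic genes are filled, against 4 of 18 genes of the anaphase-promoting complex and 25 of 34 of DNA replication.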

How the data were processed

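The authors deposited RMA log2 values for each probe set, computed with Affymetrix Expression Console 1.3.1, as the submitters' processing notes record. Quantile normalization in RMA hides a change shared by most genes, and probe summaries compress large changes. No build for the probe sets is named in the labels or headers. Of 41345 probe sets, 23521 had 1 symbol in the platform annotation, 1814 several and 16010 none. A gene was represented by its brightest probe set (22180 genes), and 0 columns were of other samples. Groups came from the sample titles. The contrast of Ad-Epas1 with Mock was fitted with limma 3.58.1 in R 4.3.3 (lmFit, eBayes, two-sided), tested on simulated data first, and p-values were adjusted by Benjamini-Hochberg across the 22180 genes. Precision is limited by the number of arrays. Members and lists were chosen with earlier results of these data known. All members are named. Array values are given for 11 measured genes of a set list and for the largest and smallest change in each of 9 role groups. Of each related list the 3 smallest p are named, and others are marked. Promoters came from RefSeq, in the first window listed per gene, and those of 1 chromosome are not printed. Alternatives were a replicate block, single arrays left out, 2 scalings, a filter at the receptor 95th percentile, other variance settings, array weights and the mean over probe sets.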

Additional observations from a re-analysis of the deposited data

How the results depend on the processing

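The count of fallen members was 57, between 51 and 57 with single arrays left out, 55 of 55 with genes above the receptor background only, and 45 with no variance shared between genes. At 1.5-fold or more it was 55, between 51 and 55 with single arrays left out, and 44 with no shared variance. The members' median was -1.77, between -2.0 and -1.64 with single arrays left out, and -2.06 when Ad-Epas1 replicate 3 and Mock replicate 1 were both left out, a setting added after the data were seen. The related genes numbered 88, between 52 and 102 with single arrays left out, 40 with no shared variance, 116 with array weights and 107 with those 2 arrays left out. Over all genes 3620 passed, between 1181 and 5390 with single arrays left out, 1448 with no shared variance, 7791 with array weights and 6000 with those 2 arrays left out. The cause of these shifts was not tested. No member changed sign under any of these settings, and 29 of the members' values under an alternative lost their call.

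Same-numbered replicates deviated together for numbers 1 and 3 (correlation of deviations 0.34 and 0.21) but not for number 2 (-0.19), and pairs of different numbers ranged between -0.33 and 0.27, so a pairing was not shown. With the number as a replicate block, 56 members (Espl1 was lost, adjusted p = 0.054), 88 related genes and 3108 of all genes passed, and 55 members fell by 1.5-fold or more. Ad-Epas1 means near background limit the fold changes of 18 members and of 6 related genes named. Single arrays below it limit those of further members, Ccna2 among them.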
